A study of Mus musculus with 10 samples.

Results

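The 10 genes described here encode TGF-beta ligands (Tgfb1, Tgfb2, Tgfb3), their receptors (Tgfbr1, Tgfbr2, Tgfbr3), the SMAD proteins Smad2, Smad3 and Smad7, and the SMAD co-repressor Skil. They were taken by symbol from a table of 23303 gene entries, and all 10 were found. The table covers the left ventricle of 10 male 129X1/SvJ mice, of which 5 had CKD, chronic kidney disease, and 5 were labelled Sham. The groups are named by the sample labels' surgery entry, while the design text calls the control mice normal. The operation, the time after it and the ages of the mice are not given in the sources used here. Values are FPKM (fragment counts normalized by the authors to transcript length and library size), so levels of different genes can be compared per length. Ventricle tissue was sequenced whole, so fewer cells of a type and less RNA per cell cannot be told apart.

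TGF-beta ligands are secreted in a latent complex and stored in the extracellular matrix until they are released. The active ligand binds the type II receptor TGFBR2, which recruits and phosphorylates the type I receptor TGFBR1, while TGFBR3 (betaglycan) presents ligand without a kinase of its own. The activated type I receptor phosphorylates SMAD2 and SMAD3, which join SMAD4 and enter the nucleus. SMAD7 blocks the receptor, and SKIL (SnoN) represses SMAD-driven transcription. Both are themselves induced by the pathway. In the heart the pathway is known for its part in fibroblast activation and scarring.

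In CKD ventricles the type II receptor Tgfbr2 was called 1.22-fold higher (log2 0.28). Smad3, which carries the receptor signal to the nucleus, was called 1.36-fold lower (log2 -0.45). Both calls were near the threshold. With the 10 libraries left out singly, the Tgfbr2 call was lost 8 times and the Smad3 call 6 times. The other 8 genes did not pass the test, with adjusted p between 0.166 and 0.755. All 3 ligands had positive changes, of 0.16 to 0.32 on the log2 scale. Of the 10 genes 1 was called higher, where 3.17% of all 11651 tested genes were, and 1 was called lower, where 2.12% were. An unadjusted p under 0.05 was reached by 4 of the 10, against 19.5% of all tested genes. The median change was 0.13 (log2) over the 10 genes and -0.0035 over all tested genes. A call here means an adjusted p under 0.05 in a limma fit of log2(FPKM + 0.5) across all genes with a mean of at least 1 FPKM, a level that all 10 genes reached.

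**Figure D1:**
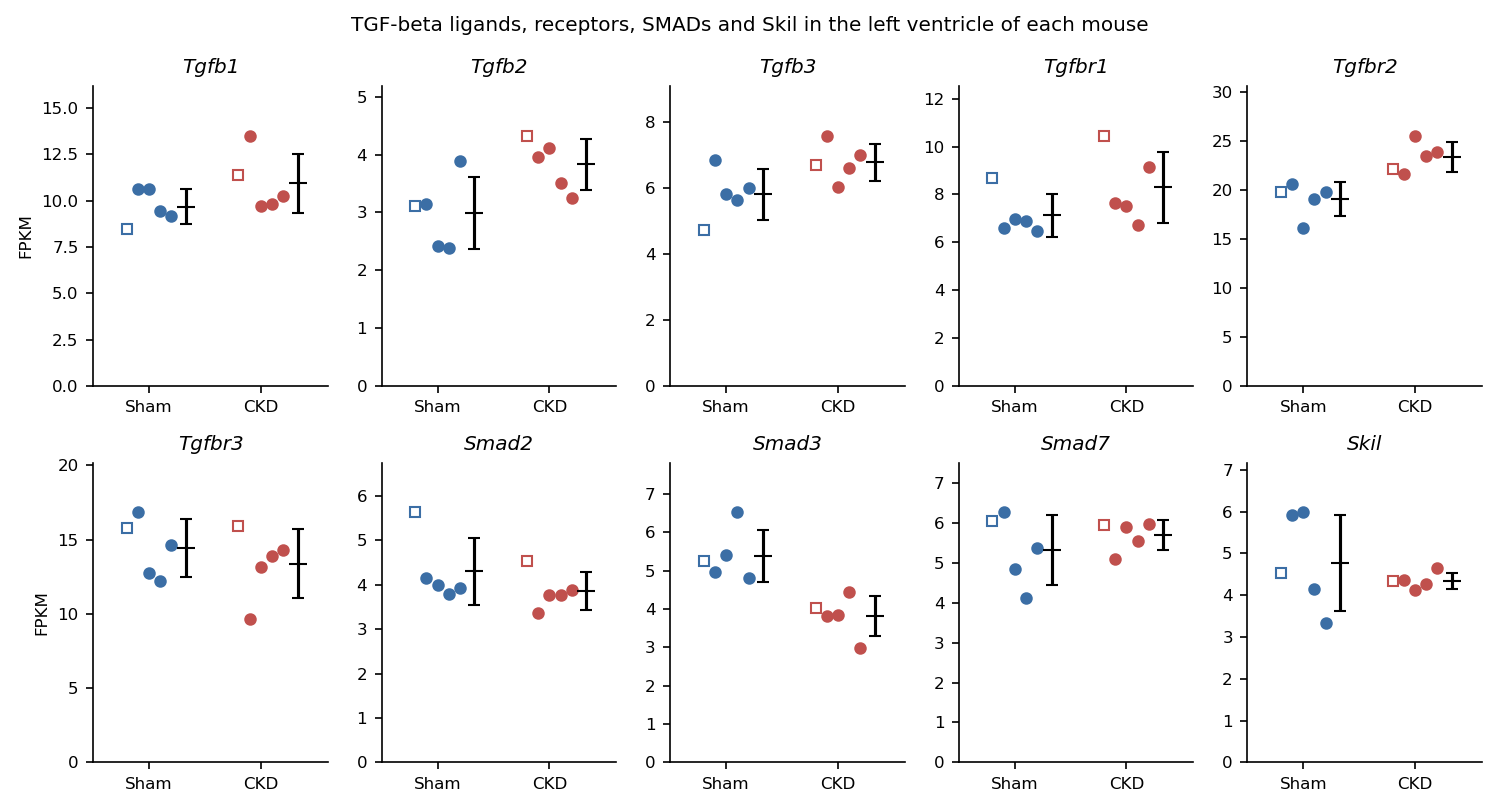
FPKM of each of the 10 genes (vertical axes, from 0) in the left ventricle of 5 Sham and 5 CKD mice (1 marker per mouse; open squares are Sham 1 and CKD 1), with the group mean and SD in black. The groups are separate for Tgfbr2 (21.7 to 25.5 FPKM in CKD, 16.2 to 20.7 in Sham) and for Smad3 (2.99 to 4.44 in CKD, 4.81 to 6.52 in Sham), and overlap for the other 8 genes.

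Summed FPKM ran from 570509 to 605007 over the libraries. This sum does not show library size, because FPKM is already normalized to it. CKD 1 and Sham 1 stood apart from the other 8. Among genes of at most 0.2 FPKM, where single reads set the steps between values, the ratio between a pair of the other 8 libraries fell in 1 narrow bin (0.01 wide on the log2 scale) for 28.6% to 34.1% of genes. For pairs that held 1 of CKD 1 and Sham 1 the share was 1.40% to 2.02%, and between these 2 libraries it was 6.81%. Relative depth could thus be read for 8 libraries, and ranged from 0.906 to 1.15 times that of Sham 2. Each group holds 1 of the 2 libraries, and values without both are given below for part of the results. Of the cardiomyocyte markers, Myh6 was listed at 0 in all 10 libraries, which can be a failed estimate and is not read as absence. The sum of the list was between 65840 and 84645 FPKM, and CKD 1 (65840) and Sham 1 (69311) were the lowest of their groups.

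In Sham ventricles the receptors Tgfbr2 and Tgfbr3 were the most abundant, at 19.1 ± 1.73 and 14.4 ± 1.95 FPKM (SD, n = 5), and their ranges overlapped although Tgfbr2 was higher within each of the 5 mice. Tgfb1 followed at 9.67 ± 0.947 FPKM, below the whole range of Tgfbr3, and Tgfbr1 at 7.12 ± 0.890. Tgfb3, Smad3, Smad7, Skil and Smad2 lay between 5.81 and 4.30 FPKM, and the ranges of neighbours in this order overlapped. Tgfb2 was lowest, at 2.99 ± 0.623 FPKM, under Smad2 within each mouse. Averaged over all 10 libraries, Tgfbr2 ranked above 71.2% of tested genes and Smad2 above 24.3%, with Tgfb2 lower still. None of the 10 genes was listed at 0 in any library, and the coefficient of variation among Sham mice ran from 9.05% (Tgfbr2) to 24.0% (Skil).

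Tgfbr2, which binds active ligand first, was at 22.2, 21.7, 25.5, 23.5 and 23.9 FPKM in CKD 1 to CKD 5. In Sham 1 to Sham 5 it was at 19.8, 20.7, 16.2, 19.1 and 19.8 FPKM. All 5 CKD values lay above all 5 Sham values, with Sham 3 lowest. Groups were separate in this direction for 4.10% of all tested genes. The difference was 0.28 (log2, SE 0.07, 95% interval 0.13 to 0.44, limma adjusted p = 0.0436). The call stood when CKD 1 or Sham 2 was dropped and ended when any other 1 library was (adjusted p = 0.0519 to 0.0988). Dropping CKD 1 and Sham 1 together also ended it (log2 0.32, adjusted p = 0.0586). So did testing all genes whatever their mean (0.0553), quantile normalization (0.0557) and a fit with no variance trend (0.0563).

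Smad3, phosphorylated by the activated receptor, was at 4.02, 3.82, 3.85, 4.44 and 2.99 FPKM in CKD 1 to CKD 5. The Sham mice had 5.25, 4.96, 5.41, 6.52 and 4.81 FPKM in the same order of numbering. Every CKD value was below every Sham value, with CKD 5 lowest and Sham 4 highest. Such separation with CKD lower was found for 3.18% of all tested genes. The difference was -0.45 (log2, SE 0.10, 95% interval -0.67 to -0.22, limma adjusted p = 0.0303), or 1.36-fold lower. Dropping 1 of CKD 1, CKD 4, Sham 2 or Sham 5 kept the call, and dropping any other 1 library ended it (adjusted p = 0.0526 to 0.0723). With CKD 1 and Sham 1 both dropped the change was -0.47 (adjusted p = 0.0615), and with all genes tested whatever their mean the adjusted p was 0.0520.

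The sequences just upstream of the start sites of these 2 genes are shown because they are the 2 genes called. Both genes lie on the minus strand of chromosome 9 in GRCm38, Tgfbr2 from 116087695 to 116175363 and Smad3 from 63646766 to 63757994. Each sequence is the 250 bases before the RefSeq start site (GRCm38.p6), at chr9:116175364-116175613 and chr9:63757995-63758244, and overlaps no gene of the GENCODE M21 annotation. Capitals mark CAGAC, the core bound by SMAD proteins, and GGGCGG, the GC box bound by Sp1-family factors, searched on both strands.
Tgfbr2: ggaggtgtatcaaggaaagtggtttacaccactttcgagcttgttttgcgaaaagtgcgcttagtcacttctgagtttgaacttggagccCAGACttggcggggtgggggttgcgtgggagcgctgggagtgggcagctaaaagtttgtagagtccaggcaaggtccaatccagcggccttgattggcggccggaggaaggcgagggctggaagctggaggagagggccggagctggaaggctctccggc
Smad3: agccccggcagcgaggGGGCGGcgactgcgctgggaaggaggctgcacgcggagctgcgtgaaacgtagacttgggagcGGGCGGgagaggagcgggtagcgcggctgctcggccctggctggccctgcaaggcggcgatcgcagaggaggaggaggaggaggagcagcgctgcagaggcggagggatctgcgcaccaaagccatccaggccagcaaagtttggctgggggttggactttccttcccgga
The Tgfbr2 window had 1 CAGAC match, 160 bases before the start site, and no GGGCGG. The Smad3 window had GGGCGG at 234 and 171 bases before the start site and no CAGAC. Of 32851 windows of the same length in the RefSeq table, 42.2% held CAGAC and 32.7% held GGGCGG, so either match is common. The table held windows for 5 of the 10 genes. Tgfbr1 had 2 windows, 1 with 2 GGGCGG matches and the other with 1 CAGAC match. That of Tgfb2 had 2 CAGAC matches and no GGGCGG, and that of Tgfb1 had 5 GGGCGG matches and no CAGAC. The matches are letters in these windows, and binding was not measured.

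The 3 ligands did not pass the test. Tgfb2, the isoform needed for heart valve development, was at 4.32, 3.96, 4.11, 3.51 and 3.26 FPKM in CKD 1 to CKD 5 and at 3.12, 3.15, 2.42, 2.38 and 3.89 FPKM in Sham 1 to Sham 5. All CKD values exceeded the Sham mean, but Sham 5 lay above CKD 4 and CKD 5. The difference was 0.32 (log2, SE 0.12, 95% interval 0.05 to 0.59, unadjusted p = 0.0226 and adjusted p = 0.166 by limma). The deposited values cannot part reads of overlapping exons, and 124 exon bases of Tgfb2 are shared with a gene on the opposite strand in GENCODE M21. Without Sham 5 the difference was 0.41 (adjusted p = 0.0547), the lowest adjusted p of any uncalled gene of the 10 under the alternatives run.

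Tgfb3 was at 6.70, 7.58, 6.04, 6.61 and 6.99 FPKM in the CKD mice and at 4.73, 6.87, 5.81, 5.63 and 6.01 in the Sham mice, by number. All 5 CKD values were above the Sham mean, and Sham 2 lay among them. Of its exon bases 420 are shared with genes on the opposite strand. Its difference was 0.21 (log2, SE 0.09, unadjusted p = 0.0402 and adjusted p = 0.229 by limma). It was 0.15 without Sham 1, its lowest library (limma adjusted p = 0.368), and 0.15 without CKD 1 and Sham 1 (0.377). Tgfb1, the main isoform of platelets and immune cells, was at 11.4, 13.5, 9.70, 9.85 and 10.2 FPKM in CKD 1 to CKD 5 and at 8.46, 10.6, 10.6, 9.45 and 9.18 FPKM in Sham 1 to Sham 5. CKD 1 and CKD 2 lay above the Sham range and the other 3 within it. The difference was 0.16 (log2, 95% interval -0.05 to 0.37, limma adjusted p = 0.391), and 0.09 without CKD 2. With CKD 1 and Sham 1 both dropped it was 0.10 (limma adjusted p = 0.648). Platelet markers, of which 5 of 6 were in the table, summed to 31.3 to 40.8 FPKM in CKD and 23.3 to 35.9 in Sham. Their part in the Tgfb1 values was not tested.

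The share of each ligand in the pool differed between the group means by less than the SD of either group. Tgfb1 made up 50.6% ± 1.99 of the summed FPKM of the 3 ligands in CKD and 52.4% ± 3.09 in Sham (SD, n = 5). Tgfb3 made up 31.6% ± 1.91 and 31.4% ± 1.61, and Tgfb2 17.9% ± 2.14 and 16.2% ± 3.36. Their sum was 21.5 ± 2.20 FPKM in CKD and 18.5 ± 1.65 in Sham. The Tgfb2 to Tgfb1 ratio differed between groups by 0.16 (log2, SE 0.17, exact permutation p = 0.365) and the Tgfb3 to Tgfb1 ratio by 0.05 (SE 0.07, exact permutation p = 0.484). With 5 against 5 mice the smallest 2-sided p of this test is 0.00794. Adjusted over the 4 ratios tested, including the 2 below, both exact permutation p were 0.587, so these data do not show that the ligands changed by different amounts.

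The type I receptor gene Tgfbr1 was at 10.4, 7.63, 7.51, 6.73 and 9.15 FPKM in CKD 1 to CKD 5. Sham 1 to Sham 5 had 8.67, 6.60, 6.97, 6.88 and 6.48 FPKM. Within each group the highest value belonged to the library that stood apart, CKD 1 or Sham 1. The difference was 0.20 (log2, SE 0.12, limma adjusted p = 0.382) with all libraries, 0.12 without CKD 1 (adjusted p = 0.569) and 0.18 without both (adjusted p = 0.275). The Tgfbr2 to Tgfbr1 ratio did not pass (difference 0.09, SE 0.16, exact permutation p = 0.587, adjusted p = 0.587), so a change of Tgfbr2 apart from its partner was not shown. The difference rested on single libraries, with 0.19 when CKD 1 was dropped, 0.14 when Sham 2 was, 0.02 when CKD 4 was, and 0.03 when CKD 3, Sham 1 or Sham 3 was. Dropping CKD 1 and Sham 1 together gave 0.13. Over all leave-outs it ran from 0.02 to 0.19, with adjusted exact permutation p of 0.413 to 0.921.

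Tgfbr3, the betaglycan co-receptor, ranged from 9.63 to 15.9 FPKM in CKD (median 13.9) and from 12.2 to 16.8 in Sham (median 14.6). It shares 297 exon bases with a gene on the same strand. CKD 2 was the lowest of all 10 libraries and the only CKD value below the Sham range. The difference was -0.11 (log2, SE 0.13, adjusted p = 0.690 by limma) and -0.0057 without CKD 2.

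**Figure D2:**
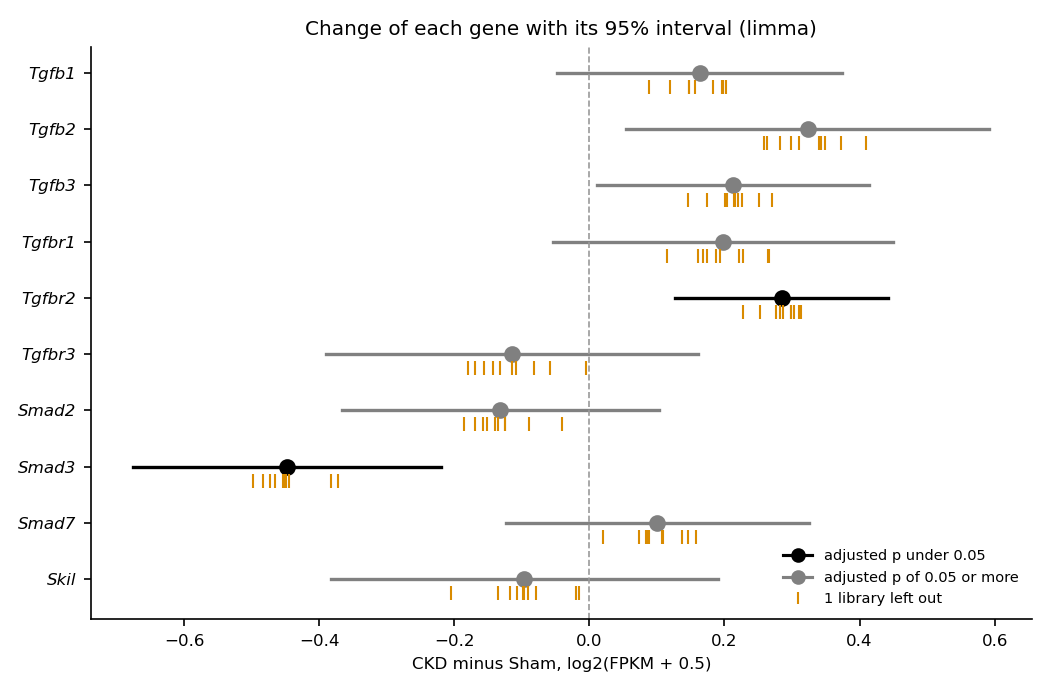
CKD minus Sham difference of each gene on the log2(FPKM + 0.5) scale (horizontal axis), with its 95% interval from limma; orange ticks are the differences with 1 of the 10 libraries left out. Tgfbr2 (0.28) and Smad3 (-0.45) passed an adjusted p of 0.05, and all leave-out values kept the sign of the value with all libraries.

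Smad2, the partner of Smad3, was at 4.53, 3.36, 3.76, 3.77 and 3.88 FPKM in CKD 1 to CKD 5 and at 5.63, 4.16, 4.01, 3.78 and 3.94 FPKM in Sham 1 to Sham 5. As for Tgfbr1, CKD 1 and Sham 1 were the highest of their groups. Smad2 did not pass (log2 -0.13, SE 0.11, limma adjusted p = 0.559), with -0.04 without Sham 1 and -0.09 without both libraries. The Smad3 to Smad2 ratio was lower in CKD by a log2 difference of -0.32 (SE 0.16, exact permutation p = 0.0952, adjusted over the 4 ratios p = 0.381). The log2 ratio ranged from -0.33 to 0.21 in CKD and from -0.09 to 0.71 in Sham, so the groups overlapped and a change of Smad3 beyond that of Smad2 was not shown. Without Sham 1, the outlying library for Smad2, the difference was -0.41 (adjusted exact permutation p = 0.0635), and dropping CKD 1 and Sham 1 together gave -0.38 (0.114). Over all libraries left out singly it ran from -0.41 to -0.21, the latter without Sham 4, with adjusted p up to 0.698.

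The 2 genes that restrain the pathway and are induced by it gave no call. Smad7 was at 5.95, 5.11, 5.90, 5.55 and 5.98 FPKM in CKD 1 to CKD 5 and at 6.04, 6.26, 4.85, 4.11 and 5.37 in Sham 1 to Sham 5 (log2 0.10, SE 0.10, limma adjusted p = 0.658). The CKD values lay wholly within the Sham range. Skil was at 4.34, 4.37, 4.11, 4.26 and 4.64 FPKM in CKD 1 to CKD 5 and at 4.53, 5.91, 5.98, 4.14 and 3.34 in Sham 1 to Sham 5 (log2 -0.10, SE 0.13, limma adjusted p = 0.755). Sham 2 and Sham 3 were above and Sham 5 below all CKD mice, and the coefficient of variation of Skil was 24.0% in Sham and 4.41% in CKD, a spread that was not tested. The 95% interval of the Skil difference ran from -0.38 to 0.19 and that of Smad7 from -0.12 to 0.33. Both estimates moved with single libraries. Smad7 was at 0.02 without Sham 4 and 0.16 without Sham 2, and Skil at -0.02 without either Sham 2 or Sham 3 and -0.20 without Sham 5.

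**Figure D3:**
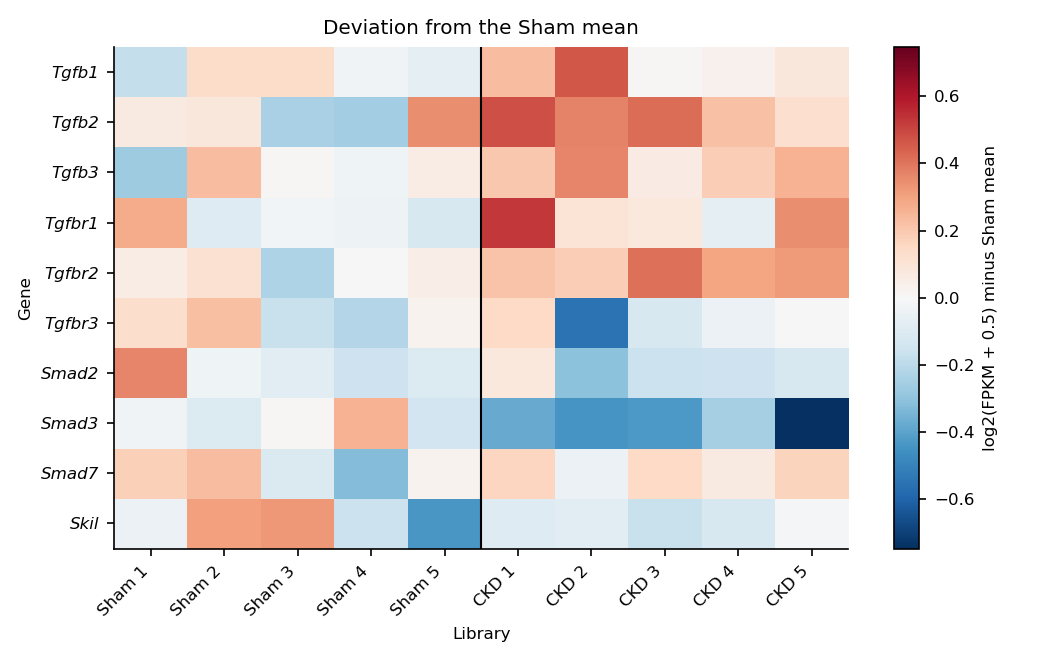
Deviation of each gene (rows) from its Sham mean in each library (columns), in log2(FPKM + 0.5) units, red above and blue below; the black line parts Sham from CKD. The Tgfbr2 row is above 0 and the Smad3 row below 0 in all 5 CKD columns, and Tgfbr1 and Smad2 are highest in CKD 1 and Sham 1 within their groups.

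The map of deviations by library also shows which genes varied together inside the groups. After subtracting group means, the highest Pearson correlations over the 10 libraries were those of Tgfbr3 with Smad7 (r = 0.79), Tgfbr1 with Smad2 (0.78) and Tgfb1 with Tgfb3 (0.75). The lowest were those of Tgfb3 with Smad2 (-0.61), Smad3 with Smad7 (-0.60) and Tgfb1 with Tgfbr2 (-0.59). Without CKD 1 and Sham 1 these were -0.10, -0.67 and -0.55. All are extremes among the pairs of the 10 genes, over few libraries, and are given as a description. The genes of a pair share their libraries and depth. Over the 8 libraries without CKD 1 and Sham 1 the highest was that of Tgfbr3 with Smad2, at 0.92 (0.66 over all 10). Tgfbr3 with Smad7 was at 0.82, Smad2 with Smad7 at 0.74 (0.63 over all 10) and Tgfb1 with Tgfb3 at 0.71, while Tgfbr1 with Smad2 was at 0.17. For likeness to each ligand, tested entries named like clones, gene models or small RNAs, and joint entries, were left out. Of the rest, the patterns most like that of Tgfb1 were those of Tubb6 (r = 0.94), Kctd2 (0.94) and Rela (0.90). For Tgfb2 they were Zswim8 (0.95), Zfp414 (0.94) and Plcg2 (0.93), and for Tgfb3 Ruvbl2 (0.93), Sart1 (0.93) and Il3ra (0.92). These are the highest of that part of the 11651 tested genes over only 10 libraries and are given as a description.

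Other genes of the pathway were read in 8 lists from the same fit. The list named latency and activation had 5 of 19 tested members higher and 1 lower (median log2 0.20), against 3.17% and 2.12% of all tested genes. Ltbp2, of the latent TGF-beta binding protein family, rose 2.32-fold, from 0.768 ± 0.159 to 2.48 ± 0.617 FPKM (SD, n = 5 each, limma adjusted p = 0.00171). Its Sham mean was under the 1 FPKM filter, which it passed only through its CKD values. With all genes tested whatever their mean its adjusted p was 0.00394. The family name is not read here as binding of TGF-beta by Ltbp2. Of the same family, Ltbp1, Ltbp3 and Ltbp4 were not called (log2 -0.09, 0.16 and 0.28, limma adjusted p = 0.505, 0.288 and 0.0963). Tgm2, a transglutaminase that crosslinks matrix proteins, rose 1.46-fold (112 ± 12.0 FPKM in Sham, 163 ± 16.9 in CKD, adjusted p = 0.00406). Mmp2, a gelatinase that can release latent TGF-beta, rose 1.29-fold, from 25.1 ± 2.03 to 32.5 ± 1.37 FPKM (adjusted p = 0.00539). Itgb6, the beta chain of an integrin that activates latent TGF-beta, fell from 5.85 ± 1.16 to 3.20 ± 0.875 FPKM (log2 -0.79, adjusted p = 0.0164, or 0.0563 with CKD 1 and Sham 1 both dropped). All 5 CKD values lay outside the Sham range for Ltbp2, Tgm2, Mmp2 and Itgb6, the 4 genes chosen by smallest p. Groups were separate with CKD higher for 4.10% and with CKD lower for 3.18% of all tested genes. The other 2 higher genes, named after their values were seen, were Nrros (log2 0.41), which anchors latent TGF-beta on myeloid cells, and Emilin1 (0.48), an inhibitor of TGF-beta precursor processing. The call of Emilin1 was lost without any 1 of CKD 2, CKD 5 or Sham 1 to Sham 4 (highest adjusted p = 0.0661), and with CKD 1 and Sham 1 both dropped (0.0708).

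**Figure D4:**
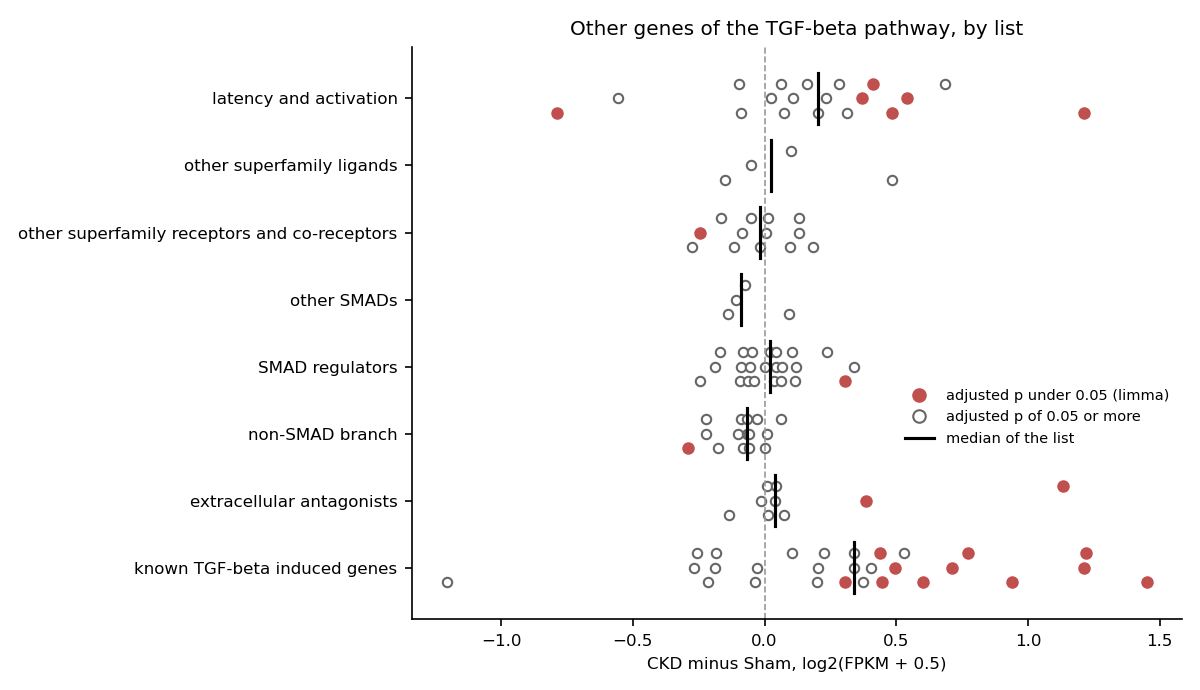
CKD minus Sham difference on the log2(FPKM + 0.5) scale for each tested gene of 8 lists of other pathway genes (1 circle per gene; vertical scatter within a list has no meaning). Filled circles passed an adjusted p of 0.05 in limma and bars are list medians. Called higher were 11 of 28 known TGF-beta induced genes and 5 of 19 latency and activation genes. Both counts include Ltbp2, which passed the filter only through its CKD values.

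The lists of other signalling components are read against the same shares of all tested genes, 3.17% higher and 2.12% lower. With 1 call each, the receptors, the SMAD regulators and the non-SMAD branch are too near these shares to give a result about the lists. Of 4 other tested SMADs limma called 0, and 0 had an unadjusted p under 0.05 (median log2 -0.09). Smad4, the shared partner of SMAD2 and SMAD3 and the most abundant of them, was at 21.1 ± 1.92 FPKM in Sham and 19.1 ± 0.795 in CKD (log2 -0.14, SE 0.07, limma adjusted p = 0.273). Of 13 other receptors and co-receptors of the superfamily, 1 was called lower and none higher (median -0.02). That gene was Hfe2 (hemojuvelin), a BMP co-receptor, which fell from 133 ± 8.16 to 112 ± 8.47 FPKM (log2 -0.24, adjusted p = 0.0436), with 4 of 5 CKD values below the Sham range. Dropping any 1 library other than CKD 1 or Sham 4 ended the call (adjusted p up to 0.106). Testing all genes (0.0553), scaling libraries to equal totals (0.0693) and a fit with no variance trend (0.0704) ended it too. Of 21 other ligands of the superfamily only 4 reached the filter, limma called 0 and 0 had an unadjusted p under 0.05. Bmp6, the most abundant, was at 10.9 ± 2.79 FPKM in Sham and 10.3 ± 1.36 in CKD (log2 -0.05, adjusted p = 0.902), and its sign changed with 4 of the alternatives.

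Of 23 SMAD regulators 1 was called higher. Tgif1, a co-repressor of SMAD complexes, rose from 2.36 ± 0.199 to 3.02 ± 0.175 FPKM (log2 0.30, limma adjusted p = 0.0453), with all 5 CKD values above the Sham range. Its call ended whichever 1 library was dropped (adjusted p = 0.0515 to 0.115). The call also ended when all genes were tested (0.0681), with equal totals (0.0582), under quantile normalization (0.0592) and with CKD 1 and Sham 1 both dropped (0.0872). In the branch that does not use SMADs, 1 of 15 genes was called lower. Mapk14, the p38-alpha kinase, fell from 28.5 ± 1.88 to 23.2 ± 1.49 FPKM (log2 -0.29, adjusted p = 0.0212), and was not called when CKD 2, CKD 3, CKD 5 or Sham 3 was dropped (adjusted p up to 0.0618). Of 9 extracellular antagonists 2 were called higher. Cilp, a matrix protein that binds TGF-beta 1, rose 2.19-fold (1.18 ± 0.249 FPKM in Sham, 3.29 ± 1.18 in CKD, adjusted p = 0.00607). Fstl3, which binds activins, rose 1.30-fold (4.42 ± 0.689 FPKM in Sham, 5.88 ± 0.352 in CKD, adjusted p = 0.0398). Fstl3 stayed called when CKD 4 or Sham 5 was dropped, and not when any other 1 library was (adjusted p up to 0.0984). It was not called when all genes were tested (0.0645), when a mean of at least 5 FPKM was asked for, or with CKD 1 and Sham 1 both dropped (0.0720).

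Genes known to be induced by TGF-beta had 11 of 28 tested members higher and none lower (median log2 0.34), where 3.17% of all tested genes were called higher and 2.12% lower. The list was chosen with earlier results of these data known, and several matrix genes in it had been seen to rise, so its count is not independent evidence. Postn, a matrix protein of activated fibroblasts, rose 2.33-fold, from 11.4 ± 1.48 to 27.5 ± 6.14 FPKM (limma adjusted p = 0.000813). Loxl2, an enzyme that crosslinks collagen, rose 1.71-fold, from 5.09 ± 0.60 to 9.07 ± 1.24 FPKM (adjusted p = 0.00164). Col1a2, a chain of type I collagen, rose 1.52-fold, from 32.6 ± 3.20 to 49.7 ± 5.87 FPKM (adjusted p = 0.00333). Ltbp2, which passed the filter only through its CKD values, and Tgif1, both described above, were also among the 11. The others were Tgfbi, Timp1, Col1a1, Col3a1, Col5a1 and Lox. Leaving out any 1 library gave 8 to 10 calls in this list, and leaving out both CKD 1 and Sham 1 gave 8.

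Pmepa1, a known SMAD target that restrains SMAD activation and is named here after its values were seen, did not pass. It had a Sham mean of 6.10 ± 0.274 FPKM and a CKD mean of 7.95 ± 1.35 (SD, n = 5 each, log2 0.34, limma adjusted p = 0.0797). Of its 5 CKD values 4 were above the Sham range, and without CKD 3 it passed (adjusted p = 0.0331).

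Of 11 cell type lists, the summed levels of fibroblast and of macrophage markers did not overlap between the groups. Among single tested genes, 4.10% were separate with CKD higher. The summed FPKM of 10 fibroblast markers was 1306 to 1497 in CKD and 1199 to 1300 in Sham, so the ranges nearly touched, and 5 of 10 were called higher. Dcn, an abundant marker in this sum, was not called (438 ± 22.3 FPKM in Sham, 461 ± 46.2 in CKD, log2 0.07, limma adjusted p = 0.610). For macrophages the sums were 381 to 552 in CKD and 270.0 to 327 in Sham, and 5 of 9 tested markers were called higher. Myofibroblast markers summed to 92.2 to 133 FPKM in CKD and 85.9 to 112 in Sham (4 of 7 higher), endothelial markers to 347 to 413 and 339 to 385, and smooth muscle and pericyte markers to 315 to 353 and 339 to 368. Limma called 0 of 9 in each of the last 2 lists and 0 of 9 cardiomyocyte markers. An unadjusted p under 0.05, in either direction, was reached by 9 of 9 macrophage, 6 of 10 fibroblast and 5 of 7 myofibroblast markers. It was also reached by 4 of 9 smooth muscle and pericyte, 1 of 9 endothelial and 1 of 9 cardiomyocyte markers. Over all tested genes that share was 19.5%, and 3.17% were called higher. Acta2, on both the myofibroblast and the smooth muscle list, was lower in CKD (log2 -0.26, unadjusted p = 0.0201 and adjusted p = 0.155 by limma). Tagln, on the smooth muscle list, was higher (log2 0.23, unadjusted p = 0.0177 and adjusted p = 0.144 by limma). Ltbp2, which passed the filter only through its CKD values, is among the myofibroblast markers called higher. Of the fibroblast markers 3 and of the myofibroblast markers 5 also stand in the pathway lists, so these counts overlap. No marker of these 5 lists was at 0 in all libraries. The part of these cell types in the values of Tgfbr2, Smad3 and the matrix genes was not tested. T cell, B cell, adipocyte, and epicardial and mesothelial markers summed to at most 11.9 FPKM in any library. Few of them reached the filter (0 T cell, 1 B cell, 1 adipocyte, and 4 epicardial and mesothelial markers), so calls say little about these lists. The 1 tested B cell marker was at a log2 difference of -0.70, with an unadjusted p under 0.05 and no call.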

How the data were processed

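Left ventricle RNA of 5 CKD and 5 Sham mice was sequenced as mRNA libraries with single reads, per the labels' protocols. The deposited values are FPKM per gene. STAR 2.4.0f1, Cufflinks 2.1.1 and Cuffdiff 2.1.1 and the builds mm10 and hg19 are named in the submitters' processing notes; the role of hg19, the annotation and the strand setting are not given in the sources used here. Such values hold no read counts, so depth is known only as a relative value for 8 libraries.

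From the deposited FPKM, log2(FPKM + 0.5) was fitted with limma 3.58.1 (R 4.3.3; variance trend, Benjamini-Hochberg adjustment) for 11651 genes with a mean of at least 1 FPKM; 5594 of 23303 entries were 0 in every library. Folds come from these logged values, so changes of low genes are understated. The fit was tested on simulated data with normal noise independent between genes and libraries, few changed genes and no library that stood apart. There it recovered 36% of changes of 1.25-fold, 74% of 1.5-fold and 92% of 2-fold. Of its 156 calls there 6 were false, and these rates need not hold for the real libraries. Changes of about 1.25-fold can thus be missed, and a gene not called is not shown to be unchanged. The 4 ratios were compared by 2-sided exact permutation tests (scipy 1.17.1). Promoters are RefSeq windows of GRCm38.p6.

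The members and lists were chosen with earlier results of these data known. Up to 4 called genes per pathway list were named by smallest p, or the most abundant where none was called, and 3 genes per ligand by correlation. Nrros, Emilin1, Pmepa1, the other called genes of the induced list and the motifs were chosen after values were seen. Alternatives changed the pseudocount (0.1, 1), the filter (none, 5), the scaling, the variance model, the weights and the libraries. A term for CKD 1 and Sham 1 was added after seeing the data. Results that single out 1 further gene are not reported here.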

Additional observations from a re-analysis of the deposited data

Results flagged for a closer look

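Of 54 groups of 5 libraries, over 27 genes described here, 3 held a library whose gap to the nearest of the others was over 0.71 of the group's range. Chance alone flags about 1 in 20 groups. Tgfbr1 was at 8.67 FPKM in Sham 1, against 6.48 to 6.97 in the other Sham libraries. Smad2 was at 5.63 FPKM in Sham 1, against 3.78 to 4.16. Mmp2 was at 28.6 FPKM in Sham 5, against 23.6 to 24.96. Sham 1 is 1 of the 2 libraries that stood apart, and its part in the Tgfbr1 and Smad2 values was not tested.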

How the results depend on the processing

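No paired analysis was possible because the labels give no replicate numbers that pair mice across groups. Of 206 values of the 10 genes under the alternatives, 186 kept their direction and side of the threshold, 20 lost the call (Tgfbr2 and Smad3) and 0 reversed. Where the Tgfbr2 call was lost its change was 0.28 with no filter or no variance trend, 0.27 under quantile normalization and 0.32 without CKD 1 and Sham 1. With 1 library left out it ranged from 0.23 to 0.31. Smad3 was at -0.45 with no filter and -0.47 without both libraries, and from -0.50 to -0.37 with 1 left out. A mean of at least 5 FPKM left 4 of the 10 genes untested. Over all genes, leaving out 1 library gave 202 to 385 higher and 131 to 290 lower calls, against 369 and 247. Sample weights gave 511 higher and 400 lower calls, and the term for CKD 1 and Sham 1 gave 573 higher and 479 lower. The cause was not tested. Leaving out 1 library gave 0 to 2 calls among other receptors, 0 to 1 among SMAD regulators, 0 to 1 in the non-SMAD branch and 1 to 2 among antagonists. It gave 5 to 7 in the latency and activation list, against 6 with all libraries, and 8 to 10 in the induced list, against 11. Other receptors had 0 calls with equal totals and 2 with the term. SMAD regulators had 0 with equal totals, 0 under quantile normalization and 2 with the term. Antagonists had 1 without both libraries. Bmp6 turned to 0.0047 with sample weights and ranged from -0.16 to 0.063 with 1 library left out.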
